A study of Homo sapiens with 12 samples.

Results

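Butyrylcholinesterase (BCHE), the kappa opioid receptor (OPRK1), LRRN1, MAP2, BDNF, neuron-specific enolase (ENO2), TUBB3, SLITRK6, aromatic L-amino acid decarboxylase (DDC) and the alpha-2A adrenergic receptor (ADRA2A) are best known from nerve cells. These 10 genes of the 10265 tested were measured here in LNCaP, an androgen-sensitive human prostate adenocarcinoma line. They were chosen by their gene symbols and by differences already seen between the groups of these same arrays. Their levels and changes are therefore a description, and no test is given for them. All 17 probe sets carrying 1 of the 10 symbols were taken, and 15 of them passed the low-value filter (log2 above 4 on at least 3 of the 12 arrays). All 10 genes had a passing probe set, but BDNF passed only through the 3 arrays of the group in which it was high. Both OPRK1 probe sets passed only through the 6 vehicle arrays, in which they were high. The SLITRK6 probe set 235976_at passed only through the 3 control siRNA R1881 arrays.

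Expression arrays were made from 4 groups of 3 samples, in a cross of siRNA with androgen. LNCaP cells of every group were grown without androgen for 48 h, transfected with a control siRNA or with one that targets the transcription factor SRF (serum response factor), and 42 h later given 5 nM R1881, a synthetic androgen, or ethanol vehicle for another 48 h. The replicates are described as biological without saying whether they were separate cultures, so the spread between arrays, and every p-value made from it, may be technical. Values are log2 signals after GCRMA, an array normalization with background correction, in which probe sets without specific signal lie near 2 to 3. A level of one probe set cannot be set against that of another, and a change towards a level under 4 depends on the background estimate. In these bulk samples, fewer cells expressing a gene and less RNA per cell cannot be told apart.

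Nerve cells signal through transmitters that are made by enzymes such as DDC, sensed by receptors such as OPRK1 and ADRA2A, and broken down by esterases and oxidases. Secreted neurotrophins such as BDNF, leucine-rich repeat membrane proteins and a specialised microtubule skeleton shape their processes. Prostate epithelium shares some of these genes, and prostate cancer cells deprived of androgen are known to take up neuron-like features, for which ENO2 and TUBB3 are often used as markers.

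SRF itself was measured with a probe set (202401_s_at) that read 5.91, 6.14 and 6.17 in the control siRNA vehicle arrays and 4.57, 5.06 and 4.58 in the SRF siRNA vehicle arrays. With R1881 it read 6.50, 6.25 and 6.16 with control siRNA and 4.89, 4.98 and 4.73 with SRF siRNA. SRF fell by 1.34 ± 0.14 (SE, limma adjusted p = 7.98e-06) in vehicle and fell by 1.44 ± 0.14 (limma adjusted p = 3.31e-06) in R1881, to 39.5% and 36.9% of control. The other SRF probe set (202400_s_at) lay between 2.558 and 2.865 on all 12 arrays and did not pass the filter. It stood at 92.4% of control in vehicle and 94.1% in R1881. Luminal markers of the line were present: 8 of 8 with a probe set, KLK3, KRT18 and EPCAM among them, read above 4 on all 12 arrays, and 0 of 3 basal markers did so on any. Of 10 markers of neurons, 8 were above 4 on no array; NEFL was above 4 on all 12, and ELAVL3 on 1, at 4.22. The mean of the neuron markers ran from 3.12 to 3.20 in control siRNA vehicle, 3.10 to 3.15 in control siRNA R1881, 3.00 to 3.13 in SRF siRNA vehicle and 3.04 to 3.09 in SRF siRNA R1881. Of the fibroblast markers 4 of 6, of the leukocyte markers 3 of 4 and of the glial markers 3 of 4 were above 4 on no array. The fibroblast marker COL1A1 (5.47 to 6.28) and the glial marker MBP (7.85 to 8.34) were above 4 on all 12. The fibroblast collagen COL3A1 differed between groups, with means of 6.45, 2.97, 7.92 and 4.07 in the same order. LYZ, a leukocyte marker, had a mean of 4.03 in SRF siRNA R1881, with replicate 3 at 4.69, and of 2.84 to 2.89 in the other groups. The part of these markers in the results was not tested. The 3′ minus 5′ difference of the GAPDH control probe sets also moved with the groups. It was 0.14 ± 0.09 (SD, n = 3) in control siRNA vehicle, 0.46 ± 0.02 in control siRNA R1881, 0.36 ± 0.04 in SRF siRNA vehicle and 0.49 ± 0.14 in SRF siRNA R1881. RNA integrity itself was not measured. With that difference as a covariate the R1881 changes in control siRNA cells were -7.14 ± 0.40 (SE) for BCHE, -6.54 ± 0.30 for OPRK1 and -5.30 ± 0.24 for LRRN1. They were -1.95 ± 0.18 for ADRA2A, 3.62 ± 0.13 for SLITRK6 and 0.29 ± 0.17 for TUBB3. The control siRNA groups did not overlap in the covariate (0.067 to 0.244 in vehicle, 0.445 to 0.491 in R1881), so these values are extrapolated.

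The promoters of the 4 genes whose R1881 changes differed most between the siRNAs are shown as the 250 bases before the RefSeq start (GRCh38.p14), 5′ to 3′ on the gene's strand. Capitals mark the letters TATAAA, read on either strand. Coordinates are chr3:165837424-165837673 (minus strand) for BCHE, chr3:3799181-3799430 (plus strand) for LRRN1, chr13:85799420-85799669 (minus strand) for SLITRK6 and chr10:111076779-111077028 (plus strand) for ADRA2A.
BCHE: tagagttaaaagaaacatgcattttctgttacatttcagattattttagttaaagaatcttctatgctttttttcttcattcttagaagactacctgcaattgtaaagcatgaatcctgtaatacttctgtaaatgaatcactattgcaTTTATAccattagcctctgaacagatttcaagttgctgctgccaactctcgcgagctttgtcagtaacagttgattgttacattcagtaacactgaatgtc
LRRN1: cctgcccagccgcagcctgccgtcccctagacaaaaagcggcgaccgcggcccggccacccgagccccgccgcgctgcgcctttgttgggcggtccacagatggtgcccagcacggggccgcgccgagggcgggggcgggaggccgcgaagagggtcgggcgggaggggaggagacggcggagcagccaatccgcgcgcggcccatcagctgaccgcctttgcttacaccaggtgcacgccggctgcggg
SLITRK6: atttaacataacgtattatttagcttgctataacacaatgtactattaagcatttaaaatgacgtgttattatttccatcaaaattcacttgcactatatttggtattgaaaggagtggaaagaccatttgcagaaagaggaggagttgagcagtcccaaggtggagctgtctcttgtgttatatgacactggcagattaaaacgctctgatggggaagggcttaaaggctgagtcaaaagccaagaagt
ADRA2A: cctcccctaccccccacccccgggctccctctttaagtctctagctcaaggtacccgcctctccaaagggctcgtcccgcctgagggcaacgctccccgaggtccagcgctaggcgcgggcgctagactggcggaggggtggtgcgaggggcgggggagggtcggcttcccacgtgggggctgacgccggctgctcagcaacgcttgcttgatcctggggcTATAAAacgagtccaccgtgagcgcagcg
Base composition differed widely, with a GC content of 33.2% for BCHE, 37.6% for SLITRK6, 68.8% for ADRA2A and 75.6% for LRRN1. ADRA2A held TATAAA on its own strand from 29 to 24 bases before the start. In BCHE the letters lay on the opposite strand, from 101 to 96 bases before the start. TATAAA occurs in 10.7% of the 35116 windows of this length. Both strands were also searched for AGAACA, the core of the androgen receptor's recognition sequence, for the CArG box, the sequence SRF recognises, and for the cAMP response element TGACGTCA. AGAACA is in 12.4% of all windows, the CArG box in 1.16% and TGACGTCA in 1.65%. None of the 17 windows examined, which belong to 9 of the 10 genes, held any of these 3 motifs, and no motif found overlapped another. This says only that the letters are not in these windows. The arrays do not tell which of several starts of DDC, BDNF, MAP2 or TUBB3 was used.

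Of the 40 group means of the 10 genes, 10 lay under log2 4. These were BCHE in control siRNA R1881, OPRK1 in both R1881 groups, MAP2 in SRF siRNA vehicle, BDNF in every group but SRF siRNA vehicle, ENO2 in control siRNA R1881, and SLITRK6 in both SRF siRNA groups. LRRN1, TUBB3, DDC and ADRA2A had no group mean under 4. Over all 17 probe sets, 29 of 68 group means were under 4.

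**Figure D1:**
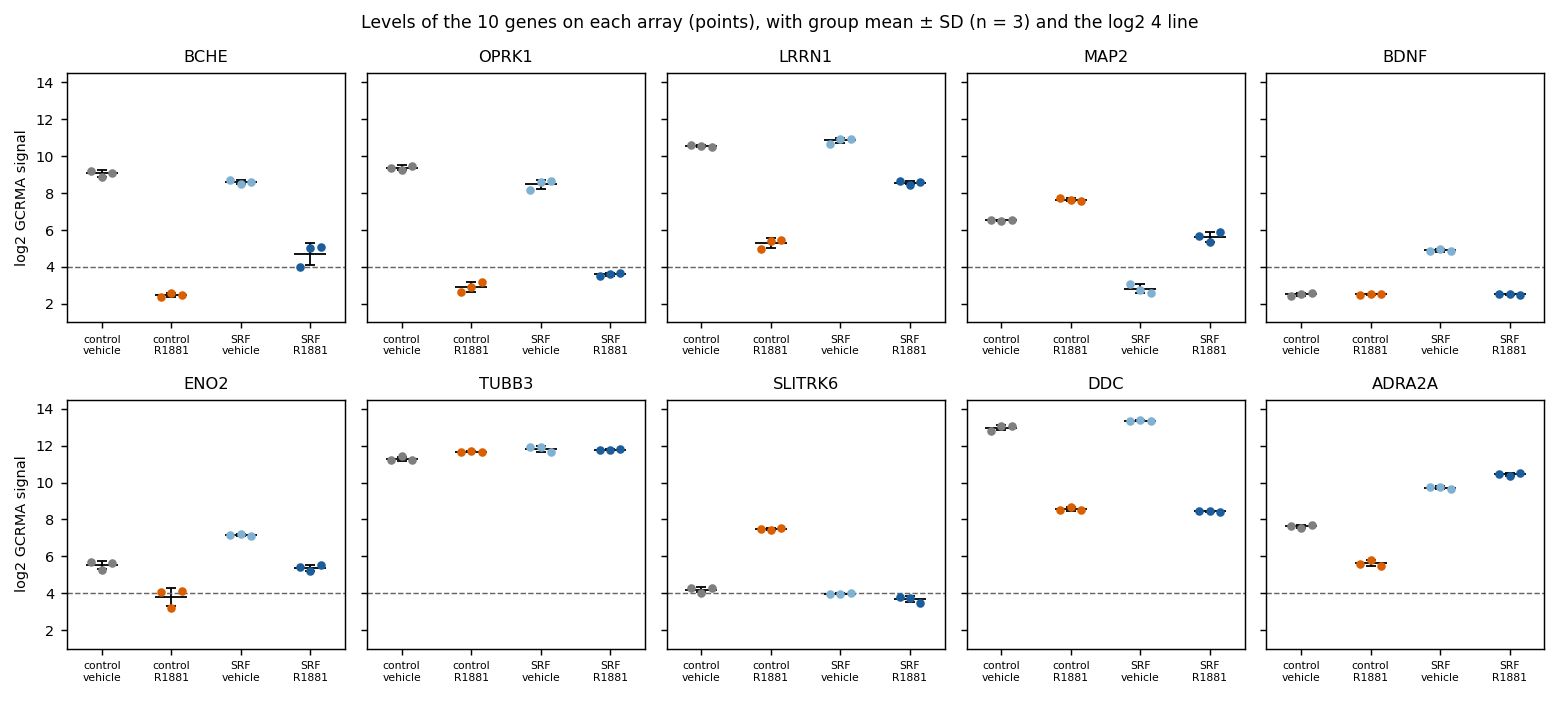
Log2 GCRMA signal (y axis) of the probe set standing for each of the 10 genes, on each of the 12 arrays, by group (x axis). Points are arrays, horizontal bars the group mean with the SD of 3 arrays, and the dashed line is log2 4; BCHE, OPRK1 and LRRN1 are lowest in control siRNA R1881, while BDNF is above 4 in SRF siRNA vehicle only.

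Among the enzymes of transmitter metabolism, DDC makes dopamine and serotonin from their amino acid precursors. Its probe set (205311_at) read 12.81, 13.04 and 13.05 in control siRNA vehicle, 8.50, 8.69 and 8.51 in control siRNA R1881, 13.35, 13.39 and 13.34 in SRF siRNA vehicle, and 8.47, 8.46 and 8.40 in SRF siRNA R1881. Both vehicle groups were high and both R1881 groups low, and no neighbouring groups overlapped. The R1881 change was -4.40 ± 0.08 (SE) with control siRNA, leaving 4.73% of the vehicle level, and -4.92 ± 0.08 with SRF siRNA, leaving 3.31%. The DDC change was large with either siRNA, and the difference between them was -0.51 ± 0.11. SRF siRNA changed the level by 0.39 ± 0.08 in vehicle and by -0.12 ± 0.08 in R1881. A second DDC probe set (214347_s_at) stayed between 3.12 and 3.23 on all 12 arrays and did not pass the filter.

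BCHE, which hydrolyses choline esters including acetylcholine, read 9.23, 8.88 and 9.10 in control siRNA vehicle and 2.37, 2.56 and 2.49 in control siRNA R1881 (205433_at). With SRF siRNA it read 8.69, 8.49 and 8.62 in vehicle and 3.99, 5.05 and 5.06 in R1881. BCHE went to the level of unexpressed probe sets with R1881 in control cells, but stood above it in SRF-silenced cells, and no groups overlapped. The R1881 change was -6.60 ± 0.23 with control siRNA, which left 1.03%, and -3.90 ± 0.23 with SRF siRNA, which left 6.70%. With every value under 4 set to 4 (a floor of 4), the change with control siRNA was -5.07. The difference of the R1881 changes was 2.70 ± 0.32, and was 1.17 with the floor. In R1881, BCHE was 4.67-fold higher with SRF siRNA than with control siRNA (log2 2.22 ± 0.23), a change of 0.70 with that floor. In vehicle the SRF siRNA change was -0.47 ± 0.23, and -0.84 ± 0.31 with the GAPDH difference as a covariate. The vehicle groups did not overlap in that covariate (0.067 to 0.244 with control siRNA, 0.315 to 0.393 with SRF siRNA). The value of -0.84 is therefore extrapolated.

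Of the receptors, OPRK1 couples dynorphin peptides to inhibitory G proteins. Its brighter probe set (229944_at) read 9.39, 9.23 and 9.49 in control siRNA vehicle, 2.62, 2.89 and 3.19 in control siRNA R1881, 8.17, 8.61 and 8.64 in SRF siRNA vehicle and 3.48, 3.63 and 3.68 in SRF siRNA R1881. Both R1881 groups were under 4, and no groups overlapped. The R1881 change was -6.47 ± 0.15 with control siRNA, leaving 1.13%, and -4.88 ± 0.15 with SRF siRNA, leaving 3.40%. With a floor of 4 these were -5.37 and -4.47, and with the median over both probe sets -5.67 and -4.13. In vehicle, SRF siRNA left 53.6% of the OPRK1 level (-0.90 ± 0.15). In R1881 it was 0.70 ± 0.15 higher, a value that became 0.00 with a floor of 4, since both groups lay below it. The difference of R1881 changes was 1.60 ± 0.21, and 0.90 with the floor. The other OPRK1 probe set (207553_at) ran lower, at 7.37, 7.14 and 7.20 in control siRNA vehicle and 6.03, 5.59 and 5.72 in SRF siRNA vehicle, and had the same R1881 directions, at -4.87 and -3.39. On that probe set the R1881 groups of the siRNAs overlapped, with a change of 0.03 between them.

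ADRA2A, a receptor for adrenaline and noradrenaline that lowers cAMP, had the opposite R1881 direction with the 2 siRNAs. It read 7.64, 7.55 and 7.70 in control siRNA vehicle and 5.57, 5.82 and 5.48 in control siRNA R1881 (209869_at). With SRF siRNA it read 9.74, 9.78 and 9.65 in vehicle and 10.47, 10.35 and 10.52 in R1881. The order ran from SRF siRNA R1881 through SRF siRNA vehicle and control siRNA vehicle to control siRNA R1881, with no overlap between neighbours and no group near the background. R1881 left 24.9% of the ADRA2A level with control siRNA (-2.01 ± 0.09). With SRF siRNA it was 1.65-fold higher with R1881 (0.72 ± 0.09), a difference of 2.73 ± 0.13. SRF siRNA against control siRNA was 4.27-fold higher in vehicle (2.09 ± 0.09) and 28.3-fold higher in R1881 (4.82 ± 0.09).

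BDNF, the secreted ligand of the TrkB receptor, read 4.85, 4.99 and 4.88 in SRF siRNA vehicle (206382_s_at). It read 2.40, 2.52 and 2.59 in control siRNA vehicle, 2.46, 2.54 and 2.52 in control siRNA R1881, and 2.55, 2.52 and 2.50 in SRF siRNA R1881. The BDNF signal was above 4 only in silenced cells without androgen, and the other 3 groups overlapped. SRF siRNA against control siRNA in vehicle gave 2.40 ± 0.07, or 5.29-fold, and R1881 in SRF siRNA cells gave -2.39 ± 0.07, leaving 19.2%. With a floor of 4 the sizes were 0.91 and -0.91. R1881 in control siRNA cells gave 0.00 ± 0.07, SRF siRNA in R1881 gave 0.02 ± 0.07, and the difference of R1881 changes was -2.39 ± 0.10, or -0.91 with the floor. The second BDNF probe set (239367_at) lay between 2.48 and 2.68 on all arrays.

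Of the leucine-rich repeat membrane proteins, LRRN1 is expressed in the developing nervous system. It read 10.59, 10.57 and 10.51 in control siRNA vehicle, 4.97, 5.42 and 5.44 in control siRNA R1881, 10.69, 10.93 and 10.94 in SRF siRNA vehicle and 8.63, 8.46 and 8.60 in SRF siRNA R1881 (226884_at). Both R1881 groups were below both vehicle groups, control siRNA R1881 by the most, and no groups overlapped. R1881 left 2.57% of the LRRN1 level with control siRNA (-5.28 ± 0.12) and 20.4% with SRF siRNA (-2.29 ± 0.12), a difference of 2.99 ± 0.17. In R1881, LRRN1 was 9.76-fold higher with SRF siRNA (3.29 ± 0.12), whereas the change in vehicle was 0.30 ± 0.12. As every LRRN1 value was above 4, the floor does not enter.

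SLITRK6, a neuronal adhesion protein that guides synapse formation and neurite growth, was high in control siRNA R1881 alone. It read 7.46, 7.45 and 7.55 there, 4.26, 4.04 and 4.26 in control siRNA vehicle, 3.95, 3.95 and 4.01 in SRF siRNA vehicle and 3.78, 3.74 and 3.49 in SRF siRNA R1881 (232481_s_at). The other 3 groups lay close to 4 and no groups overlapped. R1881 gave 9.85-fold more SLITRK6 signal with control siRNA (3.30 ± 0.09) and -0.30 ± 0.09 with SRF siRNA, a difference of -3.60 ± 0.13. The small value with SRF siRNA lay at the background, and was 0.00 with a floor of 4 and -0.05 with the median over the probe sets. SRF siRNA left 7.11% of the SLITRK6 level in R1881 (-3.81 ± 0.09), or -3.48 with the floor, and the change in vehicle was -0.21 ± 0.09. With the median over the 3 SLITRK6 probe sets the R1881 change in control siRNA cells was 2.59, the difference -2.64 and the SRF siRNA change in R1881 -2.71. Both other SLITRK6 probe sets had the same pattern: 235976_at read 6.20, 6.19 and 5.79 in control siRNA R1881 and 3.92 or less elsewhere, and 232176_at read 6.28, 6.42 and 6.35 there and 4.04 or less elsewhere. Their R1881 changes were 2.34 and 2.94 with control siRNA and 0.00 on each with SRF siRNA.

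Of the cytoskeletal genes, MAP2 encodes a microtubule-associated protein of dendrites. It read 6.56, 6.48 and 6.54 in control siRNA vehicle, 7.71, 7.65 and 7.55 in control siRNA R1881, 3.09, 2.75 and 2.60 in SRF siRNA vehicle and 5.69, 5.33 and 5.88 in SRF siRNA R1881 (225540_at). Silenced cells were lower than control cells at either treatment, R1881 was higher than vehicle with either siRNA, and no groups overlapped. SRF siRNA left 7.62% of the MAP2 level in vehicle (-3.72 ± 0.14) and 25.0% in R1881 (-2.00 ± 0.14). As the vehicle group of silenced cells lay under 4, the first MAP2 value was -2.52 with a floor of 4, -2.60 with the median over both probe sets and -1.49 on the second one. R1881 changed MAP2 by 1.12 ± 0.14 in control siRNA cells and by 2.83 ± 0.14, or 7.09-fold, in SRF siRNA cells, a difference of 1.71 ± 0.20. With the floor the R1881 change in SRF siRNA cells was 1.64 and the difference 0.52. The second probe set (210015_s_at) was dimmer and more variable, at 4.97, 3.36 and 3.50 in control siRNA vehicle, and had R1881 changes of 1.33 and 0.87 with a difference of -0.46 ± 0.55. The MAP2 probe sets thus shared the directions of the R1881 and SRF siRNA changes but not the sign of their difference.

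TUBB3, a beta-tubulin typical of neurons, was bright on every array and moved little. It read 11.22, 11.42 and 11.24 in control siRNA vehicle, 11.66, 11.73 and 11.66 in control siRNA R1881, 11.93, 11.90 and 11.64 in SRF siRNA vehicle and 11.76, 11.75 and 11.82 in SRF siRNA R1881 (202154_x_at). Control siRNA vehicle was below the other groups, and the SRF siRNA groups overlapped. For R1881 the change was 0.39 ± 0.09 in control siRNA cells and -0.05 ± 0.09 in SRF siRNA cells, a difference of -0.44 ± 0.12. With the GAPDH difference as a covariate the TUBB3 change in control siRNA cells was 0.29 ± 0.17. SRF siRNA changed it by 0.53 ± 0.09 in vehicle and by 0.09 ± 0.09 in R1881. The second TUBB3 probe set (213476_x_at) gave 0.35 and -0.03 for R1881, and 0.47 and 0.10 for SRF siRNA. Probe sets with this suffix can hybridise to RNA of related genes, so signal of other tubulins cannot be told apart.

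ENO2, the glycolytic enolase of neurons and neuroendocrine cells, read 5.67, 5.27 and 5.65 in control siRNA vehicle and 4.07, 3.21 and 4.09 in control siRNA R1881 (201313_at). With SRF siRNA it read 7.17, 7.21 and 7.11 in vehicle and 5.39, 5.20 and 5.53 in R1881. SRF siRNA vehicle was highest and control siRNA R1881 lowest, and the remaining pair of groups overlapped at 5.53 ± 0.22 and 5.37 ± 0.17 (SD, n = 3). R1881 left 30.1% of the ENO2 level with control siRNA (-1.74 ± 0.20) and 28.9% with SRF siRNA (-1.79 ± 0.20), the difference being -0.06 ± 0.28. SRF siRNA was 3.11-fold higher in vehicle (1.64 ± 0.20) and 2.99-fold higher in R1881 (1.58 ± 0.20). One array, control siRNA R1881 replicate 2 at 3.21, was low within its group, and without it the R1881 change was -1.45. With a floor of 4 that change was -1.47, the SRF siRNA change in R1881 was 1.32 and the difference of R1881 changes -0.32.

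**Figure D2:**
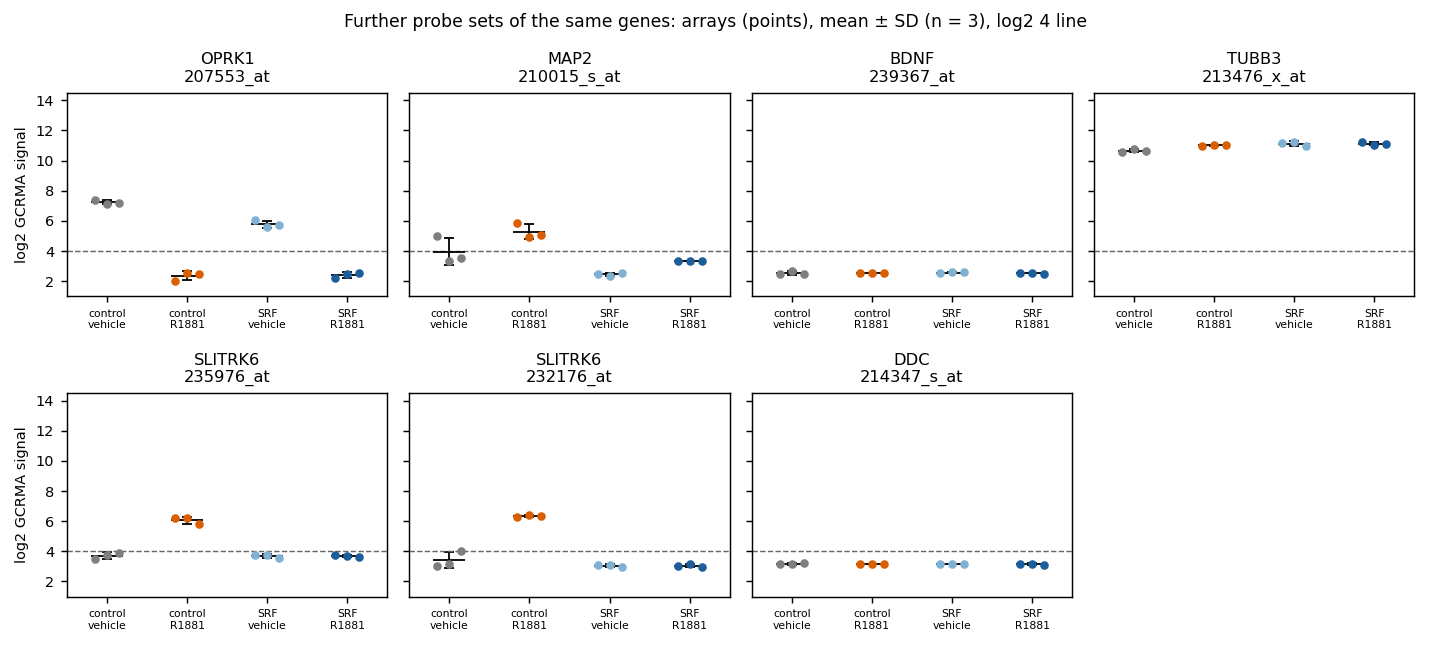
Log2 GCRMA signal (y axis) of the 7 further probe sets of the same genes on each array, by group (x axis), with the mean and SD of 3 arrays and the log2 4 line. The SLITRK6 probe sets are above 4 in control siRNA R1881, both OPRK1 R1881 groups are under 4, and the second probe sets of BDNF and DDC lie flat below 4 on all arrays.

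Set side by side, the R1881 changes of the 10 genes fall into several arrangements. ENO2 lay nearest the line of equal change with either siRNA, with a difference of -0.06 ± 0.28. TUBB3 and DDC came next, with differences of -0.44 ± 0.12 and -0.51 ± 0.11. BCHE, OPRK1 and LRRN1 were lower with R1881 in both, with smaller changes after SRF siRNA. For OPRK1 both R1881 groups lay under 4. A floor of 4 sets all of these arrays to 4, so the OPRK1 difference of 0.90 then only restates its SRF siRNA change in vehicle, -0.90. Between the siRNAs, the OPRK1 levels in R1881 differed by 0.00 with the floor and by 0.03 on the other probe set (207553_at). MAP2 was higher with R1881 in both, ADRA2A was on opposite sides of 0, SLITRK6 had a large change in control siRNA cells alone and BDNF in SRF siRNA cells alone. The comparisons share arrays (the control siRNA vehicle arrays enter both the R1881 change in control cells and the SRF siRNA change in vehicle), so their values are given beside each other only.

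**Figure D3:**
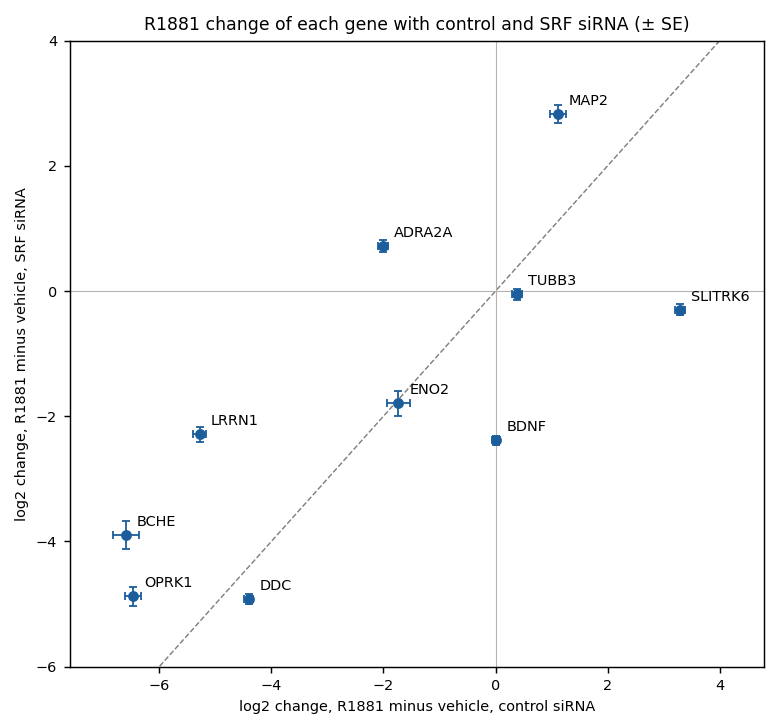
R1881 minus vehicle change of each gene (log2) with control siRNA (x axis) against SRF siRNA (y axis), with SE bars from limma; the dashed line marks equal change. ENO2 (-1.74 and -1.79) lies nearest the line, followed by TUBB3 (0.39 and -0.05) and DDC (-4.40 and -4.92). ADRA2A lies at -2.01 and 0.72, and SLITRK6 at 3.30 and -0.30.

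Counted with the rule used for all genes (limma, Benjamini-Hochberg adjusted p under 0.05), many genes of the array differed in each comparison, and since the members were chosen from these contrasts nothing is read from their counts. With R1881 in control siRNA cells, 3 of the 10 were higher and 6 lower, against 26.9% higher and 33.8% lower of all 10265 genes, and their median change was -1.87 against -0.05. With R1881 in SRF siRNA cells 2 were higher and 7 lower, against 25.5% and 27.7%, with a median of -2.04 against -0.03. For the difference of the R1881 changes 5 were above 0 and 4 below, against 13.2% and 10.5%, with a median of 0.77 against 0.03. With SRF siRNA in vehicle 5 were higher and 2 lower, against 30.7% and 25.0%, with a median of 0.34 against 0.04. With SRF siRNA in R1881 5 were higher and 2 lower, against 33.6% and 25.4%, with a median of 0.40 against 0.06.

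Other genes of the nervous system were taken from 10 lists of 164 genes that exclude the members. A probe set existed for 145, and only 30 passed the low-value filter; the other 115 were not tested. The granule and vesicle markers CHGA, CHGB, SYP, NCAM1 and UCHL1 did not pass, nor did any of 7 opioid receptor and peptide genes, the acetylcholinesterase gene ACHE, the catecholamine enzymes TH and DBH, or the BDNF receptor gene NTRK2. Tested genes numbered 1 of 14 cholinergic genes, 5 of 17 for monoamine synthesis, transport and breakdown, 3 of 16 monoamine receptors, 1 of 9 neurotrophic factors and receptors, 5 of 17 of the cytoskeleton, 3 of 19 leucine-rich repeat and axon guidance genes, 3 of 15 of granules and vesicles, 3 of 16 of GABA and glutamate, and 6 of 15 transcription and RNA-binding regulators.

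With R1881 in control siRNA cells 8 of these 30 rose and 14 fell (limma, adjusted over all genes), and 8 rose and 12 fell in SRF siRNA cells. As shares these are 26.7% and 46.7%, then 26.7% and 40.0%, to be read against 26.9% and 33.8%, and 25.5% and 27.7%, of all genes. The medians were -0.11 and -0.12. HES6, a transcription factor of the HES family, rose from 6.94 ± 0.21 (SD, n = 3) to 11.54 ± 0.08 with control siRNA (4.60 ± 0.12 SE, limma adjusted p = 3.08e-11) and by 3.26 ± 0.12 with SRF siRNA (limma adjusted p = 5.59e-10). ADRB1, the beta-1 adrenergic receptor, rose by 3.14 ± 0.14 and 3.28 ± 0.14 with the respective siRNAs (limma adjusted p = 2.03e-09 and 1.93e-09), a direction opposite to that of the ADRA2A change in control cells. GRIN3A, an NMDA receptor subunit, was 2.42 ± 0.17 higher with R1881 in control siRNA cells, or 2.08 with a floor of 4. The tubulin TUBB4A was lower with R1881 with both siRNAs, by changes of -2.97 ± 0.32 and -2.53 ± 0.32, or -1.74 and -1.77 with the floor. SLITRK3, a relative of SLITRK6, was lower as well, by changes of -1.89 ± 0.21 and -2.35 ± 0.21. GRIN3A passed the low-value filter only through R1881 arrays, and TUBB4A and SLITRK3 only through vehicle arrays. The filter favours these R1881 changes, so they are given without a test, though they are counted as called. With the floor the SLITRK3 changes were -0.16, no longer past the threshold, and -0.67. SLIT1, an axon guidance ligand, had group means of 3.00, 2.96, 5.21 and 2.92 (control siRNA vehicle, control siRNA R1881, SRF siRNA vehicle and SRF siRNA R1881). It changed by -2.30 ± 0.17 with R1881 in SRF siRNA cells, or by -1.21 with the floor. Like BDNF, SLIT1 passed the low-value filter only through the SRF siRNA vehicle arrays, so its changes are given without a test. MYT1, with means of 3.65, 3.52, 4.125 and 3.51 in the same order, passed only there too. Both are counted as called in the comparisons with that group. REST, the repressor of neuronal genes, read 8.30, 8.39, 8.26 and 8.50 in the same order, and its R1881 changes were 0.10 (limma adjusted p = 0.422) and 0.24 (limma adjusted p = 0.0656). The second REST value passed the threshold under quantile normalization, at 0.25, with a trended robust variance, at 0.24, and without SRF siRNA R1881 replicate 2, at 0.31. With the median over the REST probe sets the R1881 changes were -0.05 and 0.01.

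The R1881 changes differed between the siRNAs for 11 of the 30, 5 above 0 and 6 below (16.7% and 20.0%, against 13.2% and 10.5% of all genes), with a median of 0.11. Without control siRNA R1881 replicate 2, or without SRF siRNA vehicle replicate 2, 7 of the 30 passed. Of all genes 2025 and 2084 then passed, in place of 2441. CPE, which trims peptide hormones and neuropeptides, fell by 0.50 ± 0.07 with control siRNA (limma adjusted p = 9.26e-05) and rose by 0.83 ± 0.07 with SRF siRNA (limma adjusted p = 1.60e-06), a difference of 1.33 ± 0.10 (limma adjusted p = 4.42e-06). MAOA, the mitochondrial enzyme that oxidises serotonin and noradrenaline, rose by 0.50 ± 0.09 and by 1.27 ± 0.09, a difference of 0.77 ± 0.13 (limma adjusted p = 0.000993). ROBO1, a receptor for Slit ligands, fell with both, by changes of -1.02 ± 0.11 and -0.39 ± 0.11, a difference of 0.62 ± 0.15 (limma adjusted p = 0.0108). The difference was -1.33 ± 0.17 for HES6 (limma adjusted p = 0.000159). For SLIT1 it was -2.26 ± 0.24, or -1.21 with the floor, without a test because of the filter. SYT4, a synaptotagmin of secretory vesicles, differed by -0.34 ± 0.08 (limma adjusted p = 0.0122), and by -0.22 with quantile normalization, no longer past the threshold. The neurofilament gene NEFL differed by 0.62 ± 0.21 (limma adjusted p = 0.0490). NEFL missed the threshold in 16 of 22 alternative settings, with 0.17 for the median over its probe sets.

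SRF siRNA raised 8 of the 30 and lowered 11 in vehicle, and raised 10 and lowered 7 in R1881. The shares are 26.7% and 36.7%, then 33.3% and 23.3%, against 30.7% and 25.0%, and 33.6% and 25.4%, of all genes, and the medians were 0.02 and 0.06. SYT4 fell from 10.47 ± 0.05 (SD, n = 3) to 8.70 ± 0.03 in vehicle (-1.77 ± 0.06 SE, limma adjusted p = 1.81e-09) and fell by 2.11 ± 0.06 in R1881 (limma adjusted p = 2.40e-10). SLC1A1, a neuronal glutamate transporter, fell in both, by changes of -2.09 ± 0.16 and -2.18 ± 0.16 (limma adjusted p = 6.94e-07 and 3.54e-07). NEFL fell by 1.32 ± 0.15 in vehicle (limma adjusted p = 1.17e-05), a change of -0.52 with the median over its probe sets. In vehicle ADRB1 rose by 1.02 ± 0.14 (limma adjusted p = 5.70e-05). SLIT1 was 2.21 ± 0.17 higher there, or 1.21 with the floor, without a test because of the filter. In R1881, ROBO1 rose by 1.39 ± 0.11 (limma adjusted p = 4.67e-07), while HES6 fell by 1.43 ± 0.12 (limma adjusted p = 8.32e-07) and GRIN3A fell by 1.30 ± 0.17 (limma adjusted p = 3.54e-05).

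**Figure D4:**
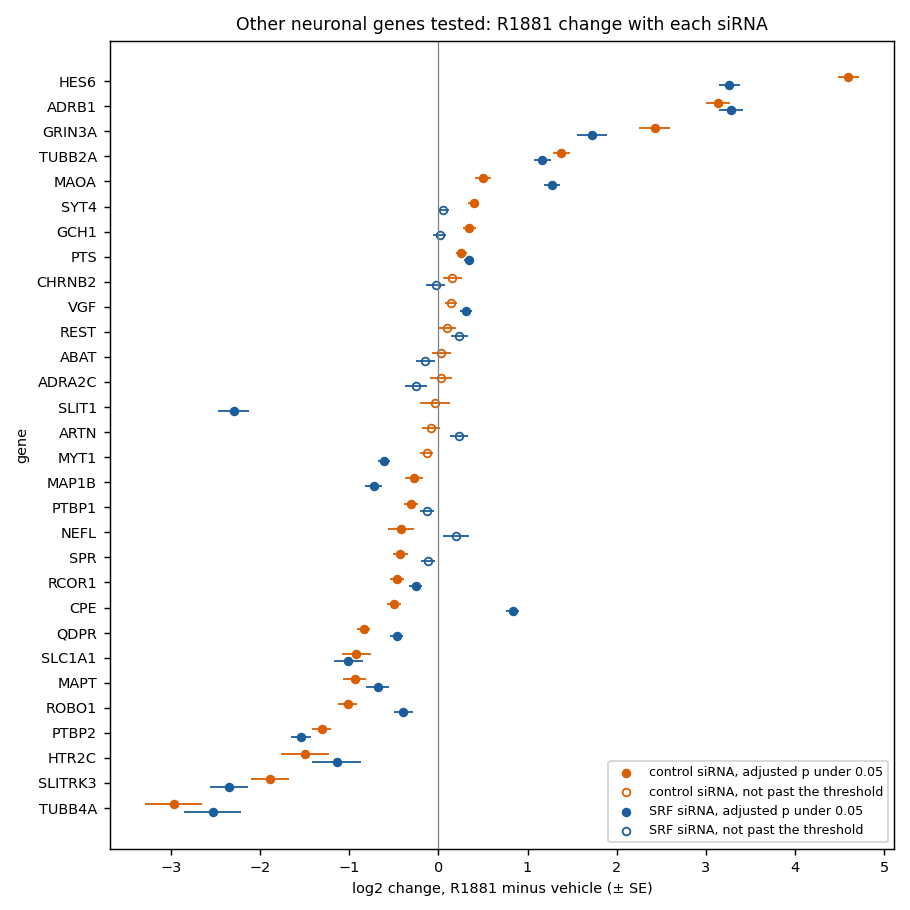
R1881 minus vehicle change (x axis, log2, with SE bars) of the 30 tested genes of the neuronal lists (y axis), with control siRNA in orange and SRF siRNA in blue; filled points passed an adjusted p of 0.05 in limma and open points did not. HES6 and ADRB1 are highest with either siRNA, SLIT1 is near 0 with control siRNA and at -2.30 with SRF siRNA, and CPE lies on opposite sides of 0.

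The genes whose log2 values followed each member most closely were found by Pearson's r over the 12 arrays. These arrays share the same 4 groups, so r mostly describes the order of the groups, and it is given with no test. For BCHE they were ACKR3 (r = 0.994), RCAN3 (0.993) and ARHGAP12 (0.991). ACKR3 had group means of 10.88, 4.06, 10.55 and 6.25 in the same order of groups, with a high vehicle level and an intermediate level in SRF siRNA R1881, as BCHE had. OPRK1 was followed by HIBADH (r = 0.998), COLEC12 (0.997) and MANEA (0.996), and LRRN1 by PAICS (0.991), SRSF7 (0.990) and NINJ1 (0.990). The range of PAICS, 12.53, 11.35, 12.56 and 12.07, was far smaller than that of LRRN1, since r ignores the size of change. MAP2 was followed by BBS4 (r = 0.987), SELENOM (0.986) and SNN (0.985). For BDNF they were PTPRB (r = 0.996), MEX3A (0.992) and SOX11 (0.989). PTPRB read 2.79, 2.54, 5.44 and 2.56 and SOX11 2.67, 2.36, 5.46 and 2.43. Both were above 4 in the mean of SRF siRNA vehicle alone, which follows from picking them for their likeness to BDNF. ENO2 was followed by ABHD18 (r = 0.988), RAD51AP1 (0.986) and KDM5B (0.985), and TUBB3, whose range was small, by EIF4EBP1 (0.964), CANX (0.942) and TIMM17A (0.935). SLITRK6 was followed by ACTA2 (r = 0.996), GRHL1 (0.992) and MKLN1 (0.988). ACTA2, which encodes smooth muscle actin, read 5.57, 8.22, 5.54 and 5.43. DDC was followed by SI (r = 0.997), ODAM (0.997) and SELENBP1 (0.996), and ADRA2A by AFG3L1P (0.992), MTR (0.987) and TMX1 (0.983). AFG3L1P read 6.90, 6.30, 7.64 and 7.90, the same order of groups as ADRA2A.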

How the data were processed

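The table the authors deposited holds 1 log2 GCRMA value per probe set and array, 54675 probe sets on 12 arrays; GCRMA is named in the submitters' processing notes, and its version is not given in the sources used here. The number of arrays limits the precision. The arrays' medians (2.97 to 3.06) were left as deposited. Control probe sets (62) and those with several gene symbols (1801) or none (11721) were left out, and symbols came from the platform's annotation (41037 of 41091 matched through the gene number). Probe sets above log2 4 on at least 3 arrays were kept (21584, of which 18676 had 1 symbol). Each gene was represented by its passing probe set of highest mean, giving 10265 genes.

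Group means were modelled with limma 3.58.1 in R 4.3.3 (eBayes, statmod 1.5.0 for the robust alternative), with Benjamini-Hochberg adjustment over all 10265 genes, and checked on simulated data. Threshold: adjusted p under 0.05. SE is the moderated standard error of the log2 change. The members, the 10 neuronal lists and the marker lists were chosen with earlier results of these data known. Named were the members, SRF, REST, the 5 called list genes with the largest change per comparison, the neuroendocrine markers, and the 3 genes with the highest Pearson r to each member. ACHE, TH, DBH, NTRK2 and MYT1 fall outside this rule, as do COL1A1, MBP, COL3A1 and LYZ among the markers. They were picked after their values were seen. Alternatives were a stricter or no filter, a floor of 4, every probe set or their median, equal medians, quantile normalization, a trended robust variance, only the groups compared, a 2-fold threshold, a GAPDH covariate, a replicate block, and each array left out in turn. Whether equal replicate numbers pair arrays was checked by the correlation of deviations from the group means. No pairing was seen, though the check cannot exclude it. Promoter sequences are from RefSeq. Plots come from matplotlib 3.10.9 (Python 3.11.15).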

Additional observations from a re-analysis of the deposited data

Results flagged for a closer look

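Of the neuronal list genes named above, 7 had R1881 changes that differed between SRF siRNA and control siRNA by the interaction term in limma: SLIT1 by -2.26, HES6 by -1.33, CPE by 1.33, MAOA by 0.77, ROBO1 by 0.62, NEFL by 0.62 and SYT4 by -0.34 (log2, SRF siRNA minus control siRNA). NEFL and SYT4 lost the threshold under other settings, as given above. SLIT1 passed the low-value filter only through the SRF siRNA vehicle arrays, so its difference is a description. CPE was the one of these 7 whose R1881 changes passed the threshold in opposite directions.

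For SLITRK6 and ADRA2A, every R1881 array lay on one side of every vehicle array with control siRNA and on the other side with SRF siRNA. The differences were -3.60 and 2.73. How many of all genes separate in this way was not counted, so nothing is read from it. Both were chosen for such values, so the difference was not tested. For SLITRK6 both SRF siRNA group means lay under 4. Its change with SRF siRNA was -0.003 with a floor of 4 and 0.00 on each of its other probe sets.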

How the results depend on the processing

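GCRMA levels under 4 limit these results: 10 group means lay under 4 and 6 under 3, and changes into them are smaller with a floor, by the amounts given in the gene paragraphs. Requiring at least a 2-fold change as well left 9, 11, 3, 5 and 7 list genes (R1881 with control siRNA, R1881 with SRF siRNA, the difference, SRF siRNA in vehicle, SRF siRNA in R1881) in place of 22, 20, 11, 19 and 17, and 1452, 1095, 514, 953 and 1192 of all genes in place of 6225, 5453, 2441, 5717 and 6058. Leaving out each array in turn gave 20 to 22, 19 to 22, 7 to 12, 19 to 21 and 15 to 19 list genes. For the difference, calls among all genes also fell, from 2441 to 2025 and 2084 in the settings with 7 list genes. In the setting with 12 they were 2210. The replicate block gave 22, 20, 8, 20 and 17 list genes, and 6148, 5316, 2200, 5585 and 5921 of all genes. Same-numbered arrays had correlations of -0.214 to 0.099 between their deviations, and arrays of unlike number -0.074 to 0.207. No pairing by number was seen, which does not exclude that same-numbered arrays shared a culture or run. With the GAPDH covariate 3924 of all genes passed for R1881 with control siRNA, and the median of all genes there was -0.13.

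Among changes with an adjusted p under 0.05 on a gene's own probe set, signs turned on further probe sets only where values were near 0 or the set was dim. MAP2 (210015_s_at) gave a difference of -0.46, and SLITRK6 (232176_at) an R1881 change with SRF siRNA of 0.002. DDC (214347_s_at) gave 0.013 for that R1881 change, 0.041 for the difference and -0.03 for SRF siRNA in vehicle. Among the other changes, signs turned for DDC with SRF siRNA in R1881 (0.011). They also turned for BDNF (239367_at) with R1881 in control siRNA (-0.029) and with SRF siRNA in R1881 (-0.003). Values near 0 also changed sign under other settings, namely BDNF with R1881 in control siRNA and with SRF siRNA in R1881, TUBB3 with R1881 in SRF siRNA, the ENO2 difference, and SLITRK6 with SRF siRNA in vehicle; every other change of a member kept its sign on its own probe set. BDNF has no value under a filter at 5. The cause of these changes was not tested.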
